A study of Danio rerio with 4 samples.

Results

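Genes of fatty acid synthesis, activation, oxidation and storage were examined in the brains of adult atrn-/- and wild-type zebrafish. The members were taken by name: gene symbols that begin with the names of the enzymes, droplet proteins and PPAR regulators of fatty acid metabolism, which 78 of the 31030 genes in the deposited table did. Of these, 6 are G-patch genes (gpatch1, gpatch2, gpatch3, gpatch4, gpatch8 and gpatch11) that share only the letters gpat with the glycerol-3-phosphate acyltransferases. They code for RNA-binding proteins and are not described further. The other 72 lipid genes comprised 19 of synthesis, 10 of activation, 22 of oxidation, 14 of glycerolipid building, storage and release, and 7 regulators.

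The study asked which brain genes differ when atrn is knocked out. Brains of fish aged 4 months were sequenced as 4 libraries: male atrn-/-, male wild type, female atrn-/- and female wild type, with 1 library each. The mutants carry atrn nju70, a CRISPR/Cas9 deletion allele predicted to give a truncated protein in every cell, so the loss is not limited to the brain. In different places the study describes a single brain and several brains per group, and the number of fish behind each library is not stated in the labels. Total counts lay between 8654693 in female wild type and 16254750 in male atrn-/-. The targeted gene had 28.7 and 32.3 CPM (counts as a share of the library total, scaled by TMM factors that even out library composition) in the male and female atrn-/- libraries, against 50.6 and 75.5 CPM in the male and female wild types. Markers of neurons, oligodendrocytes and radial glia were present in every library.

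Fatty acids are made in the cytosol. Citrate is split to acetyl-CoA, acetyl-CoA carboxylase makes malonyl-CoA, and fatty acid synthase builds palmitate, which elongases (Elovl) lengthen and desaturases (Scd, Fads) introduce double bonds into. Oxidation runs the other way. Acyl-CoA synthetases activate the acid, the carnitine shuttle carries it into mitochondria, and repeated rounds of beta-oxidation release acetyl-CoA, while peroxisomes shorten very long chains. The brain is rich in lipid, burns little fatty acid compared with muscle or liver, and its glia make long-chain and polyunsaturated fatty acids for membranes and myelin.

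Among the members, those that build fatty acids were mostly higher in atrn-/- brains, whereas those placed under oxidation were centred on no difference. Over both sexes, the 17 synthesis genes with enough counts to test had a median log2 fold change of 0.41 (range -0.25 to 0.71), and 14 of them were above 0. The 22 oxidation genes had a median of -0.0033 (range -0.44 to 0.58), with 11 above 0. The median over all 19943 genes tested was -0.0024. No lipid gene passed the test across all genes. Each genotype had 2 libraries, 1 male and 1 female, which are not replicates of a sex. A quasi-likelihood test in edgeR that also fitted sex called 0 of the 65 lipid genes tested at a Benjamini-Hochberg adjusted p under 0.05, beside 0.211% of all genes. At an unadjusted p under 0.05 it found 11 lipid genes higher in atrn-/-, 8 of them synthesis genes, beside 4.41% of all genes, and 3 lower, none of synthesis, beside 4.66% of all genes. DESeq2's Wald test called 1 lipid gene, fasn, among 93 genes in all. It put 6 lipid genes, 4 of them synthesis genes, at an unadjusted p under 0.05, and the share of all genes at that threshold is not given here. Without the filter on low counts edgeR called elovl2 and fasn. In whole brain, more cells of a type and more RNA per cell cannot be told apart.

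**Figure D1:**
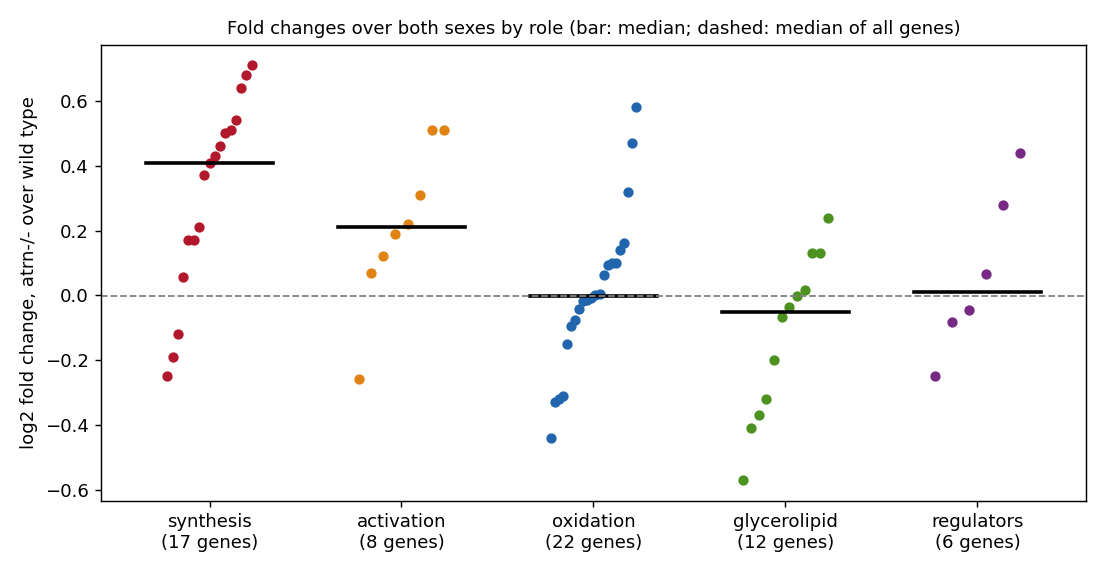
Log2 fold change of atrn-/- over wild type from the fit over both sexes (y axis) for each tested lipid gene (1 point per gene), by role. Black bars are role medians and the dashed line is the median of all genes tested. Synthesis genes had a median of 0.41 and oxidation genes of -0.0033.

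Without a model, the scaled counts of the same libraries showed the same separation, which is not independent support. Both atrn-/- libraries were above both wild types in 11 of the 17 synthesis genes, a pattern found in 18.6% of all genes, and in 5 of the 22 oxidation genes. Both were below both wild types in 2 synthesis genes and in 6 oxidation genes, beside 19.2% of all genes. The oxidation counts were near these shares. In males, 9 synthesis genes and 12 lipid genes in all were at least 1.5-fold higher in atrn-/-, beside 7.54% of all genes, and 1 lipid gene was at least 1.5-fold lower, beside 7.02%. In females the distances were smaller. There 1 synthesis gene and 3 lipid genes in all were at least 1.5-fold higher in atrn-/-, beside 8.35% of all genes, and 3 lipid genes were that much lower, beside 10.4%. The synthesis median was 0.59 in males and 0.20 in females. Each sex had 1 library per genotype, so a difference between the sexes was not tested. In 4 lipid genes the sexes lay on opposite sides of 0 with both 95% counting intervals away from it, a pattern found in 5.92% of all genes, so this count is near the background. Without either male library, the fit rested on the females and the synthesis median was 0.20.

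**Figure D2:**
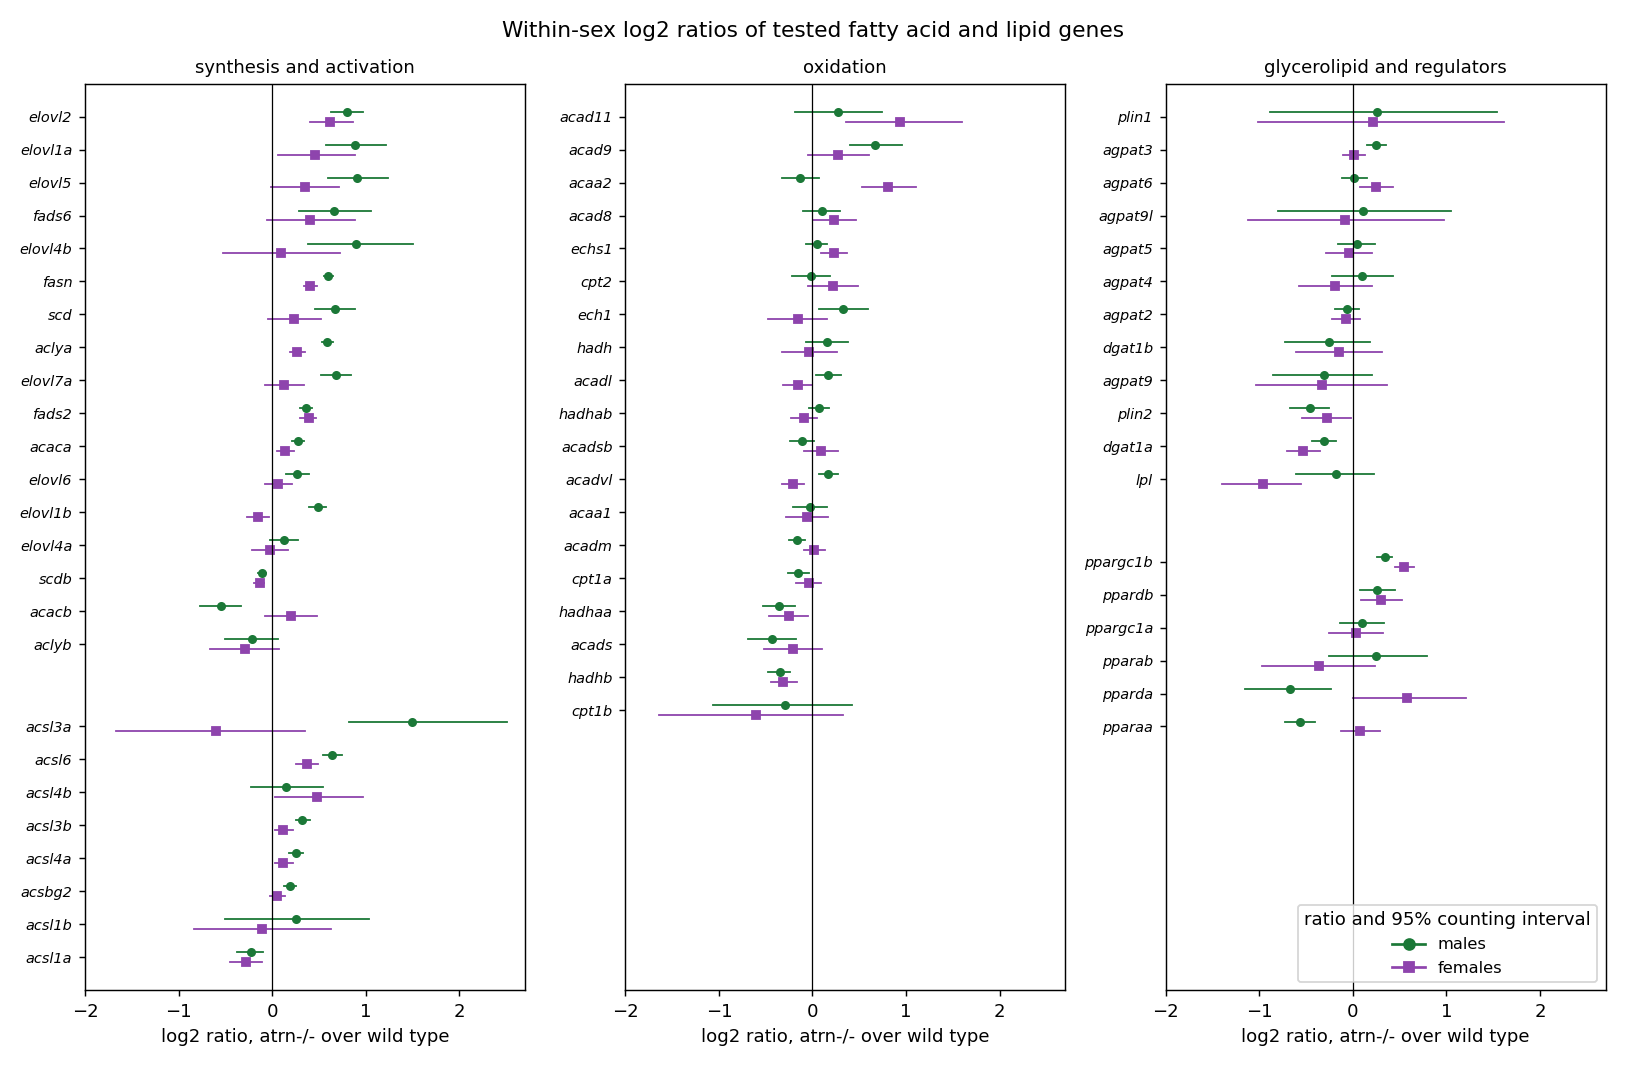
Log2 ratio of atrn-/- over wild type within males (circles) and within females (squares) for 62 of the 65 tested lipid genes, with bars for the exact 95% counting interval of each ratio. In synthesis the points lie mostly right of 0 and further right in males, and in oxidation they lie on both sides.

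Among the genes that make palmitate, fasn and aclya were higher in both mutant sexes. fasn, which codes for fatty acid synthase, had 431 and 407 CPM in the male and female atrn-/- libraries, against 284 and 307 CPM in the male and female wild types. Its mutant libraries lay above both wild types, and its log2 fold change was 0.50 (standard error 0.104, edgeR adjusted p = 0.189). Over the other fits, its adjusted p lay between 0.0240 and 0.302. aclya codes for ATP citrate lyase, which supplies cytosolic acetyl-CoA. It had 323 and 279 CPM in atrn-/- males and females, against 214 and 232 CPM in the wild types, a log2 fold change of 0.43 (standard error 0.116, edgeR adjusted p = 0.331), which was 0.27 without either male library.

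The other genes of this step held both directions. aclyb, the second citrate lyase gene, had 12.4 and 10.8 CPM in the atrn-/- libraries, against 14.3 and 13.2 CPM in the wild types, so both mutants were lower. The carboxylase acaca, which makes malonyl-CoA for synthesis, had 241 and 193 CPM in atrn-/- males and females, against 199 and 175 CPM in the wild types, and the groups overlapped. Malonyl-CoA from acacb is known in mammals to restrain carnitine entry into mitochondria. acacb had 18.1 and 22.7 CPM in atrn-/-, against 26.6 and 19.7 CPM in wild type, lower in males (log2 ratio -0.55, 95% counting interval -0.77 to -0.33) with a female ratio of 0.20 (-0.074 to 0.48). How reads shared by duplicated genes were counted is not given in the sources used here, so the split between such pairs is uncertain.

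The elongases held the largest synthesis fold changes. elovl2 and elovl5 lengthen polyunsaturated fatty acids on the way to docosahexaenoic acid (DHA), the main omega-3 acid of brain membranes. elovl2 had 48.7 and 40.2 CPM in the male and female atrn-/- libraries, against 28.0 and 26.0 CPM in the male and female wild types. The groups were well apart, and its log2 fold change of 0.71 was the highest of the lipid genes tested (standard error 0.135, edgeR adjusted p = 0.151, between 0.0208 and 0.344 over the other fits). elovl5 had 15.2 and 14.1 CPM in atrn-/-, against 8.01 and 11.1 CPM in wild type, a log2 fold change of 0.64 (standard error 0.222, edgeR adjusted p = 0.469). Its female counting interval, -0.0088 to 0.72, reached 0, and the fold change was 0.35 without either male library.

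fads2, which in zebrafish carries out both desaturation steps of that route, differed about equally in the sexes. It had 266 and 247 CPM in male and female atrn-/-, against 207 and 189 CPM in wild type. The log2 ratios were 0.36 (95% counting interval 0.30 to 0.43) in males and 0.39 (0.30 to 0.47) in females. The gene mfsd2ab, from a list of related genes outside the name rule, codes for a paralog of the transporter that carries DHA-bearing lysolipids across the blood-brain barrier. It had 153 and 162 CPM in atrn-/-, against 116 and 107 CPM in wild type, again with no overlap. Its second copy, mfsd2aa, overlapped, with 64.3 and 34.9 CPM in male and female atrn-/-, against 41.1 and 43.4 CPM in wild type. Over both sexes fads2 had a log2 fold change of 0.37 (edgeR adjusted p = 0.331) and mfsd2ab of 0.49 (edgeR adjusted p = 0.237).

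elovl1a, of the elongase family that makes saturated very-long chains for sphingolipids, had 14.5 and 11.7 CPM in atrn-/- males and females, against 7.76 and 8.44 CPM in the wild types. Its log2 fold change was 0.68 (standard error 0.219, edgeR adjusted p = 0.419). The second copy, elovl1b, went opposite ways in the sexes. It had 133 CPM in male atrn-/- against 95.2 CPM in male wild type, and 101 CPM in female atrn-/- against 112 CPM in female wild type. fads6 had 9.38 and 8.78 CPM in atrn-/-, against 5.89 and 6.61 CPM in wild type. elovl4a, an elongase for very long chains, overlapped, with 46.1 and 45.1 CPM in atrn-/-, against 42.2 and 45.7 CPM in wild type. Its second copy, elovl4b, had 5.03 and 4.51 CPM in atrn-/-, against 2.63 and 4.22 CPM in wild type. Most of the elovl4b difference was in males (log2 fold change 0.51 over both sexes and 0.092 without the male mutant). elovl7a was likewise further apart in males, with 52.5 and 37.9 CPM in male and female atrn-/-, against 32.7 and 34.6 CPM in the wild types, and its fold change of 0.41 was 0.13 without male wild type.

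The stearoyl-CoA desaturases, which make oleate, split. Their deposited human matches are SCD5 for scd and SCD for scdb. scd had 29.3 and 22.8 CPM in male and female atrn-/-, against 18.3 and 19.4 CPM in wild type, above in both mutants. scdb had 503 and 529 CPM in atrn-/-, against 542 and 580.3 CPM in wild type, a little below in both. The log2 fold change of scdb was -0.12 (standard error 0.0964, edgeR adjusted p = 0.767) and that of scd 0.46 (edgeR adjusted p = 0.512), which was 0.23 without male wild type.

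**Figure D3:**
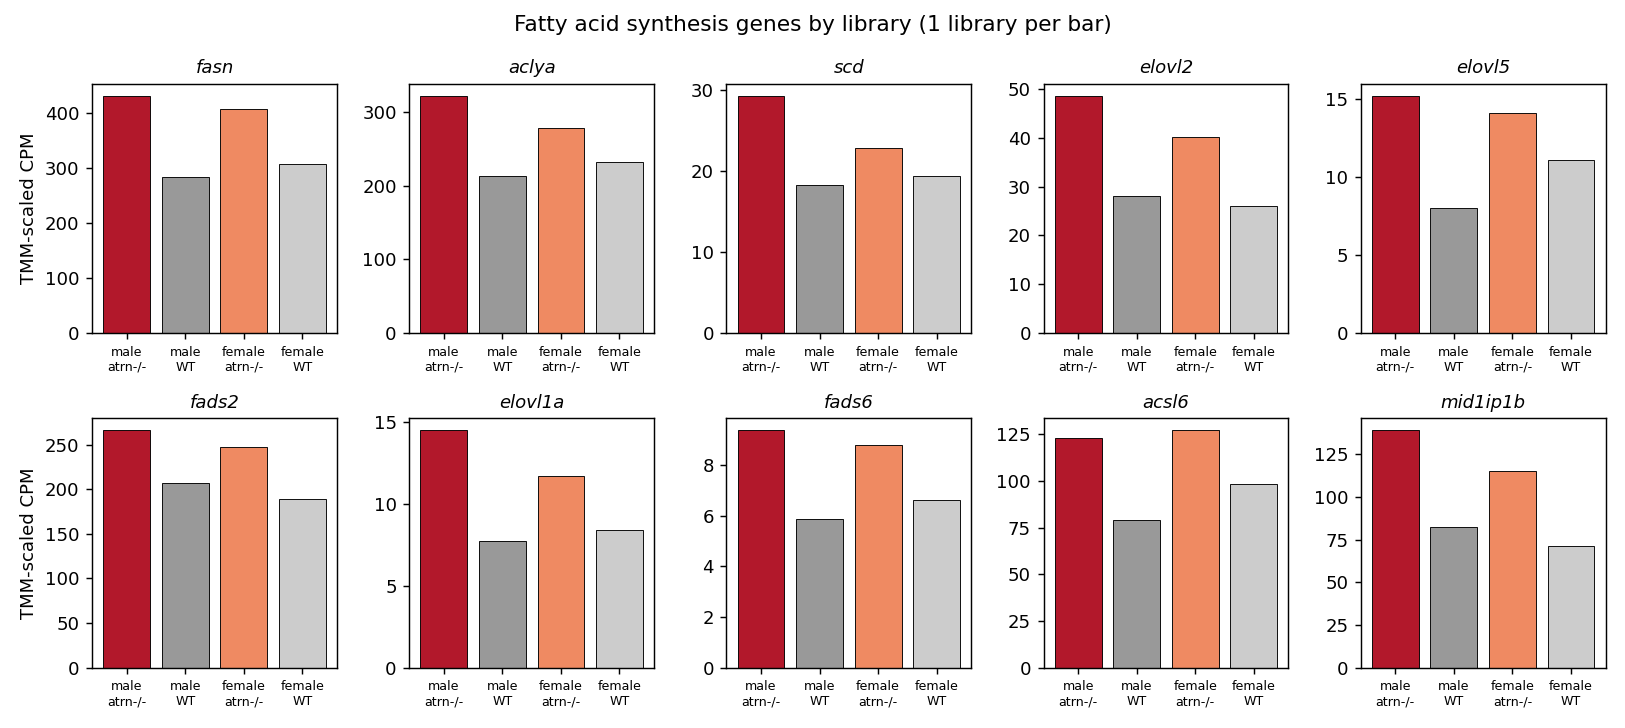
TMM-scaled CPM (y axis, from 0) of 9 genes of synthesis and activation and of mid1ip1b in the 4 libraries, with 1 bar per library and no replicate error. In all 10 genes each atrn-/- bar stands above the wild-type bars of both sexes. The genes shown are a choice, and 11 of the 17 tested synthesis genes had this pattern. In 2 tested synthesis genes that are not shown, scdb and aclyb, both mutants were below both wild types.

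Activation genes leaned the same way with smaller values. The 8 tested genes had a median log2 fold change of 0.21, with 7 above 0, and the median was 0.25 in males and 0.089 in females. acsl6, an acyl-CoA synthetase of neurons that in mice enriches brain DHA, was the 1 activation gene at an unadjusted p under 0.05. It had 123 and 127 CPM in the male and female atrn-/- libraries, against 78.8 and 98.3 CPM in the wild types, a log2 fold change of 0.51 (standard error 0.120, edgeR adjusted p = 0.264). acsl3b had 198 and 176 CPM in atrn-/-, against 159 and 162 CPM in wild type. acsl4a, which prefers arachidonic acid in mammals, had 201 and 176 CPM in atrn-/-, against 168 and 162 CPM in wild type. For both genes the mutant libraries were above the wild types, narrowly in females.

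acsbg2, a bubblegum-family synthetase, had 284 and 243 CPM in atrn-/-, against 249 and 233 CPM in wild type, and overlapped. acsl3a was low and uneven, with 53 and 18 counts in male and female atrn-/-, against 17 and 19 counts in wild type. Its male log2 ratio was the highest of the lipid genes tested (95% counting interval 0.82 to 2.51) and its female ratio was -0.60 (-1.67 to 0.35). acsl4b had 7.52 and 9.47 CPM in atrn-/-, against 6.76 and 6.73 CPM in wild type. acsl1a was the 1 tested activation gene below 0, with 48.8 and 48.0 CPM in atrn-/-, against 57.4 and 58.3 CPM in wild type.

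Genes of the trifunctional protein, a mitochondrial complex, lay below 0 or close to it. The complex carries out the last steps of each round on long chains. hadhb, its beta subunit, had 70.2 and 75.5 CPM in the male and female atrn-/- libraries, against 89.7 and 93.5 CPM in the wild types. The mutants were below both wild types, and the log2 fold change was -0.33 (standard error 0.112, edgeR adjusted p = 0.449). hadhaa, one of the duplicated alpha subunits, had 31.9 and 33.5 CPM in atrn-/-, against 41.1 and 39.8 CPM in wild type. The other, hadhab, had 89.6 and 81.6 CPM in atrn-/-, against 85.2 and 87.0 CPM in wild type, so only hadhaa lay alongside the beta subunit.

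Acyl-CoA dehydrogenases take the first step, with acads, acadm and acadvl for different chain lengths. acads, for short chains, had 14.2 and 15.6 CPM in atrn-/-, against 19.2 and 18.0 CPM in wild type, a log2 fold change of -0.32 (standard error 0.179, edgeR adjusted p = 0.656). acadm, for medium chains, had 128 and 136 CPM in atrn-/-, against 144 and 134 CPM in wild type, and overlapped. acadvl, for very long chains, had 110.0 and 100.1 CPM in male and female atrn-/-, against 97.7 and 116 CPM in wild type, higher in the male and lower in the female mutant. acad9, which also serves in complex I assembly, and acad11 were the highest oxidation genes. acad9 had 17.0 and 17.5 CPM in atrn-/-, against 10.6 and 14.5 CPM in wild type, a log2 fold change of 0.47 that was 0.27 without male wild type. acad11 had 5.53 and 6.87 CPM in atrn-/-, against 4.57 and 3.53 CPM in wild type, a log2 fold change of 0.58 (standard error 0.299, edgeR adjusted p = 0.627), which was 0.27 without female wild type. echs1, a hydratase of the second step, had 81.1 and 83.6 CPM in atrn-/-, against 78.5 and 71.3 CPM in wild type.

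The carnitine step showed little. cpt1a, which loads long chains onto carnitine, had 79.4 and 83.8 CPM in atrn-/-, against 88.0 and 86.2 CPM in wild type. cpt1b, which the file pairs with human CPT1A, had 30 and 19 counts in male and female atrn-/-, against 37 and 20 counts in wild type, and both its counting intervals included 0. Its log2 fold change was -0.44, and -0.29 without female wild type. acaa2, the mitochondrial thiolase that releases acetyl-CoA, was low only in female wild type. It had 25.2 and 27.6 CPM in male and female atrn-/-, against 27.5 and 15.6 CPM in male and female wild type. Its log2 fold change was 0.32 over all 4 libraries and -0.12 without female wild type.

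**Figure D4:**
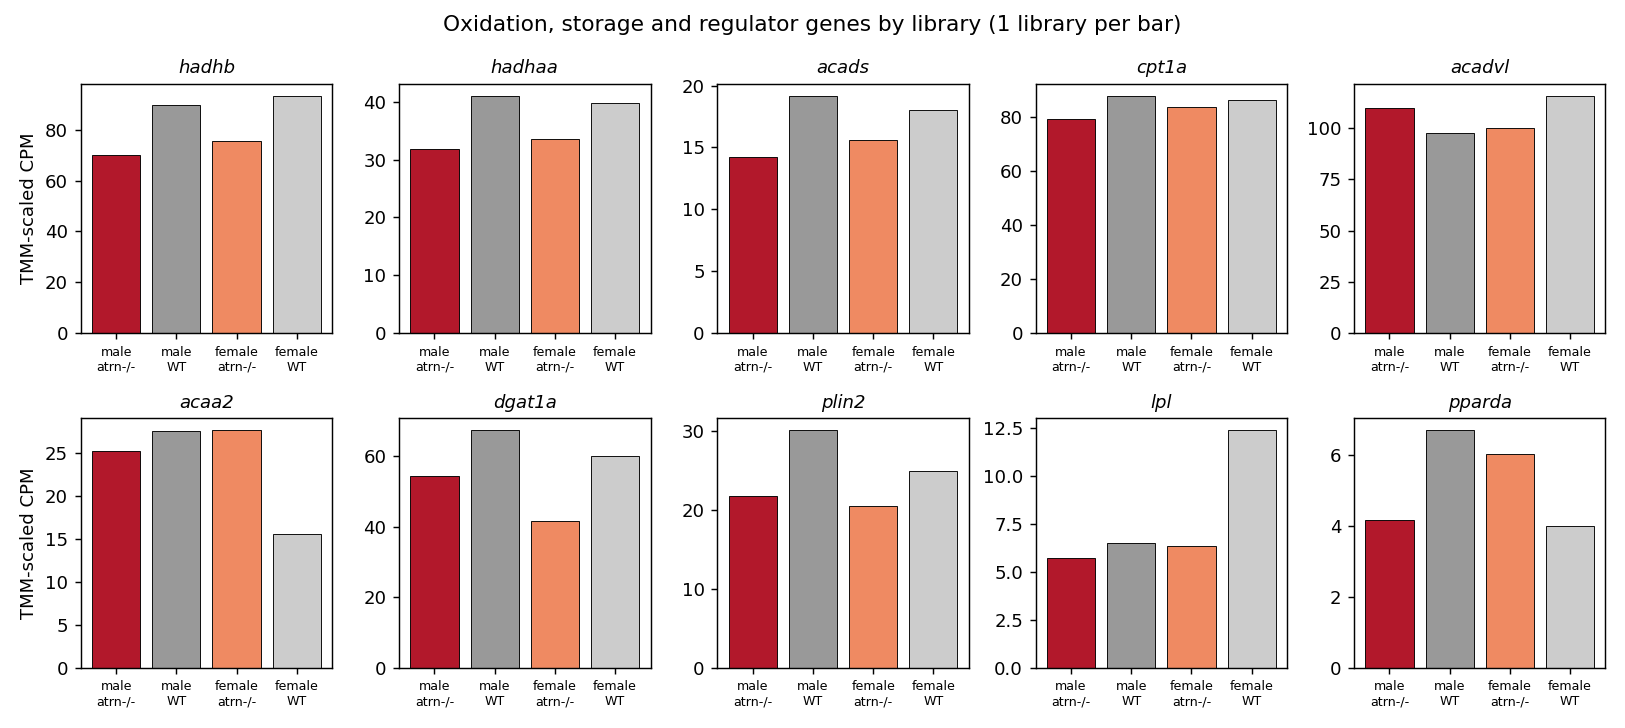
TMM-scaled CPM (y axis, from 0) of 6 oxidation genes, 3 genes of lipid storage and release and pparda in the 4 libraries, 1 bar per library and no replicate error. hadhb, hadhaa, acads, cpt1a, dgat1a, plin2 and lpl are lower in both mutants than in both wild types, acaa2 is low in female wild type, and acadvl and pparda go opposite ways in the sexes. The genes shown are a choice. Of the 22 tested oxidation genes, 6 had both mutants below both wild types and 5 had both above.

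Muscle, which oxidises fatty acids heavily, marked 1 library. The 26 muscle markers in the table, of which tnnt3a and tnni2a.4 were at 0 counts in at least 1 library, summed to 459 and 945 CPM in male and female atrn-/-, against 667 CPM in male wild type and 5828 CPM in female wild type. Oxidation medians with and without that library were close to 0: -0.0033 over all 4 libraries and -0.019 without female wild type. The fold change of hadhb was -0.33 over all 4 libraries and -0.35 without female wild type. In males the muscle sum was also lower in atrn-/-, at 0.688-fold of wild type. There ryr1b alone had 276 of 459 CPM in atrn-/- and 363 of 667 CPM in wild type. That gene was not high in female wild type, with 313 CPM. Of the 24 tested muscle markers, 2 were above 0 in males. lpl differed mainly through the female wild type. The part of muscle in these values was not tested.

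Of the 12 tested genes of glycerolipid building, storage and release, 4 were above 0. lpl, the lowest lipid gene tested, codes for lipoprotein lipase, which frees fatty acids from circulating lipoproteins. It had 5.71 and 6.34 CPM in male and female atrn-/-, against 6.51 and 12.4 CPM in wild type, a log2 fold change of -0.57 (standard error 0.272, edgeR adjusted p = 0.595). Without female wild type the value was -0.18. Its male interval was -0.61 to 0.23 and its female interval -1.40 to -0.55. dgat1a, for the last step of triglyceride synthesis, had 54.4 and 41.7 CPM in atrn-/-, against 67.3 and 60.1 CPM in wild type. Both mutants were lower, with a log2 fold change of -0.41 (standard error 0.126, edgeR adjusted p = 0.391). plin2, a coat protein of lipid droplets, had 21.8 and 20.5 CPM in atrn-/-, against 30.1 and 24.9 CPM in wild type, a log2 fold change of -0.37 (standard error 0.157, edgeR adjusted p = 0.547).

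The acyltransferases on the route from glycerol-3-phosphate to phospholipid mostly varied little. agpat3 had 111 and 117 CPM in atrn-/-, against 93.5 and 116 CPM in wild type. agpat2 had 65.4 and 67.1 CPM in atrn-/-, against 68.3 and 70.5 CPM in wild type. The other agpat genes had log2 fold changes between -0.32 and 0.13. The lowest was agpat9 (now gpat3), with both mutants below both wild types. The highest was agpat6 (now gpat4), with both mutants above. Over the 12 tested genes of this role the median was -0.052. It was -0.14 over the 10 genes that averaged 50 counts or more, and -0.12 without either male library.

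The 6 tested regulators had a median log2 fold change of 0.010, which was 0.18 to 0.19 with any 1 library left out. Among them, ppargc1b was the one with an unadjusted p under 0.05. It codes for PGC-1 beta, a coactivator that in mouse liver works with the lipogenic factor SREBP1 as well as with mitochondrial genes. It had 173 and 206 CPM in male and female atrn-/-, against 137 and 141 CPM in the wild types. Both mutants were higher, with a log2 fold change of 0.44 (standard error 0.109, edgeR adjusted p = 0.289). The paralog ppargc1a had a log2 fold change of 0.065.

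The PPAR receptors, which sense fatty acids, differed among themselves. pparaa, of the subtype known for driving oxidation genes, had 34.1 and 36.6 CPM in atrn-/-, against 50.2 and 34.7 CPM in wild type, so only male wild type was high. pparda had 67 and 79 counts in male and female atrn-/-, against 107 and 35 counts in wild type, with log2 ratios of -0.67 (95% counting interval -1.15 to -0.23) in males and 0.58 (0.0049 to 1.21) in females. ppardb had 32.0 and 39.0 CPM in atrn-/-, against 26.7 and 31.6 CPM in wild type.

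The remaining 7 lipid genes had too few reads to test: acsbg1, acsl5, dgat2, elovl6l, elovl7b, gpat2 and pparg. pparg, the adipocyte PPAR, came closest to the limit of a mean of 10 counts, with 9 and 7 counts in male and female atrn-/-, against 3 and 7 counts in wild type. plin1, the adipocyte droplet coat, was just above it with 15 and 16 counts in atrn-/-, against 12 and 9 counts in wild type. gpat2 had 9 and 4 counts in atrn-/-, against 0 and 4 counts in wild type. None of the others exceeded 5 counts in a library, and a difference in them was not detectable at this depth.

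A list of 105 further genes of these pathways had 89 in the table and 83 tested. None was called, and at an unadjusted p under 0.05 there were 11 higher and 2 lower in atrn-/-, beside 4.41% and 4.66% of all genes. Their median log2 fold change was 0.053. mid1ip1b stood nearest to the threshold. The mammalian MID1IP1 protein binds acetyl-CoA carboxylase and promotes its activity. mid1ip1b had 139 and 115 CPM in male and female atrn-/-, against 82.1 and 71.4 CPM in wild type, a log2 fold change of 0.72 (standard error 0.110, edgeR adjusted p = 0.0930). It passed under DESeq2's Wald test (adjusted p = 0.00756) and without the filter on low counts (edgeR adjusted p = 0.00319). Over the other fits its adjusted p reached 0.294, so it did not pass in all of them.

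Other synthesis partners held both directions. The 14 tested synthesis partners, mid1ip1b included, had a median log2 fold change of 0.058, with 9 above 0. At an unadjusted p under 0.05 in edgeR, 4 were higher and 1 lower, beside 4.41% and 4.66% of all genes. This median was far below the 0.41 of the synthesis members taken by name. acss2, which makes acetyl-CoA from acetate, had 78.2 and 86.2 CPM in atrn-/-, against 62.6 and 69.7 CPM in wild type. tecrb, for the closing reduction of each elongation round, had 92.4 and 85.3 CPM in atrn-/-, against 70.1 and 66.9 CPM in wild type. me1, the malic enzyme that supplies NADPH, had 13 and 1 counts in male and female atrn-/-, against 33 and 7 counts in wild type. The 14 tested regulators outside the name rule had a median log2 fold change of -0.056, with 6 above 0. Both mutants were above both wild types in 2 of them and below in 5, beside 18.6% and 19.2% of all genes. Among the 2 was srebf1, the gene of SREBP1 itself, with 51.6 and 43.9 CPM in atrn-/-, against 41.1 and 39.8 CPM in wild type. Its log2 fold change was 0.24 (edgeR adjusted p = 0.647).

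The 13 tested carriers of fatty acids and acyl-CoA included 5 of the 11 higher genes, beside 4.41% of all genes. Their median log2 fold change was 0.18. It was 0.29 in males and -0.018 in females, with 11 and 6 above 0. Among the 5, fabp7b overlapped, with a log2 fold change of 1.08 that was 0.21 without male wild type. Its female counting interval was -0.40 to 0.87. In slc27a1b both mutants were below both wild types. fabp7a, the brain fatty acid binding protein of radial glia, had 1015 and 923 CPM in male and female atrn-/-, against 832 and 683 CPM in wild type. dbi, the acyl-CoA binding protein, had 206 and 183 CPM in atrn-/-, against 154 and 131 CPM in wild type. fabp3 had 292 and 242 CPM in atrn-/-, against 223 and 198 CPM in wild type. Of the 15 partners of oxidation, gcdha alone was at an unadjusted p under 0.05, a count near the share of all genes, and their median was 0.053. lpin1, a phosphatidate phosphatase, was the lower gene of glycerolipid building, with 51.6 and 60.1 CPM in atrn-/-, against 68.1 and 75.3 CPM in wild type.

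Summed markers of red cells, muscle and liver were lower, and those of radial glia, endothelium and adipocytes higher, in atrn-/- of both sexes. Of these lists only red cell and muscle markers included called genes, with 7 and 3. Of the 13 liver markers, 3 were tested. In the liver sum, cp alone had 109 of 124 CPM in male and 101 of 110.2 CPM in female atrn-/-. In the wild types cp had 156 of 172 CPM in the male and 137 of 148 CPM in the female. Of the 4 tested adipocyte markers, 2 were above 0 in both sexes and 1, lepa, below 0 in both. In females the adipocyte marker fabp11a had 14.3 CPM in atrn-/- against 9.35 CPM in wild type. The 11 radial glia markers summed to 7228 and 6338 CPM in male and female atrn-/-, against 5786 and 5249 CPM in wild type, which is 1.25-fold and 1.21-fold. gfap, with the highest fold change of the list, had 131 and 119 CPM in atrn-/-, against 72.8 and 83.1 CPM in wild type. glula had 1835 and 1222 CPM in atrn-/-, against 1064 CPM in each wild type, so it weighed heavily in the male sum. Of the 11 radial glia markers, 10 had a fitted log2 fold change above 0, and 7 were above 0 in males and in females alike. cyp19a1b, sox2 and aqp1a.1 were lower in male atrn-/-, and cx43 was lower in female atrn-/-. None was at 0 counts in any library, and fabp7a is both a marker and a fatty acid carrier. The 15 endothelium markers summed to 330.1 and 339 CPM in atrn-/-, against 258 and 306 CPM in wild type. Of the 14 tested, 13 had a fitted log2 fold change above 0, but 6 were above 0 in males and in females alike. In 2 of the 14 both mutants were above both wild types, a pattern found in 18.6% of all genes. The part of radial glia in the synthesis values, and of endothelium in those of mfsd2ab, was not tested. The 10 red cell markers summed to 1211 and 1268 CPM in atrn-/-, against 3231 and 2441 CPM in wild type, and 7 of them were called lower. Summed oligodendrocyte markers, like synthesis genes, were higher in male atrn-/-, with 13225 CPM against 10975 CPM in male wild type. In females the sum was lower in atrn-/-, with 12749 CPM against 14671 CPM in wild type. Most of it was mbpa, with 8554 CPM in female atrn-/- against 10365 CPM in female wild type. The median log2 ratio of the 13 markers was 0.37 in males and -0.040 in females, with 11 and 4 above 0. The summed 12 neuron markers were 0.968-fold of wild type in male and 1.04-fold in female atrn-/-. Adipocyte markers summed to at most 24.4 CPM in any library, and adipoqb had at most 4 counts.

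**Figure D5:**
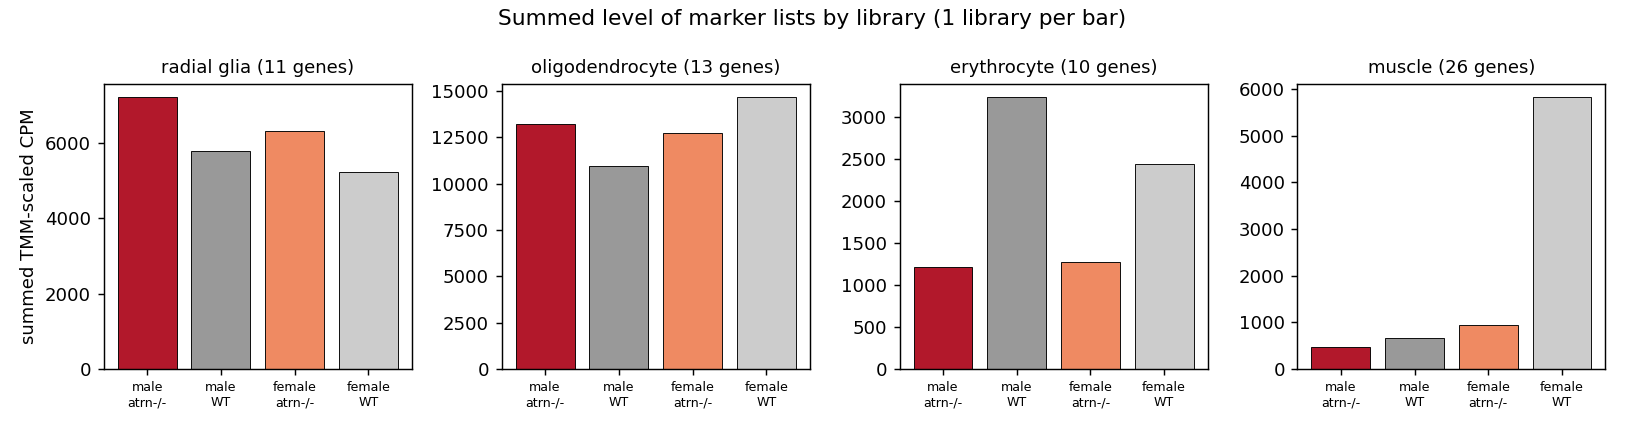
Summed TMM-scaled CPM (y axis, from 0) of the radial glia, oligodendrocyte, erythrocyte and muscle marker lists in the 4 libraries, 1 bar per library. Radial glia markers are higher and erythrocyte markers lower in both mutants, oligodendrocyte markers differ in opposite directions in the sexes, and muscle markers are high in female wild type.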

How the data were processed

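The deposited values are the authors' gene counts, whole numbers that had not been normalized. The submitters' processing notes name HISAT2 and GRCz10 and the paper names MapSplice. Versions, annotation, counting program and use of strand are not given in the sources used here, and the paper's RPKM values and EB-Seq screen were not repeated. Groups came from the labels. Counts were scaled with TMM factors in edgeR 4.0.16 (R 4.3.3), and genes averaging 10 counts or more entered edgeR's quasi-likelihood test in a model of sex and genotype (1 residual degree of freedom) and Benjamini-Hochberg adjustment. The 2 libraries of a genotype were 1 male and 1 female. The p-values therefore measure the spread left between these libraries once sex and genotype are fitted, not that between replicates of a sex. The quasi-likelihood fit also draws each gene's variance towards a trend over all genes. With 1 residual degree of freedom, the p-values and standard errors rest in part on that trend. Within a sex, log2 ratios used a prior count of 2, had no test, and carry exact Clopper-Pearson 95% intervals of the mutant's share of counts, rescaled by library size, which cover counting error only. Counts are not per length, so levels were compared between libraries within a gene, or as sums over the same marker list, in which the genes with the most counts weigh most.

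Named were the members with the most counts in each role (3, or 2 for regulators), the 6 highest and 6 lowest fold changes and the 5 largest differences between sexes, which gave 28 genes. Other genes given with values, among them fads2, scd, acsl6, acad9 and mid1ip1b, were chosen after their values were seen. Members, roles and lists were chosen with earlier results of these data known. Alternatives were total counts or DESeq2 1.42.0 size factors, either no filter or one at 50 counts, a prior count of 0.5 or 5, a 2-fold threshold, DESeq2's Wald test, no sex term and each library left out. No sequences of the members are shown, and values of some members are not reported here.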

Additional observations from a re-analysis of the deposited data

Results flagged for a closer look

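With 1 library for each sex and genotype, the differences between sexes given here were not tested. In 4 lipid genes the sexes went opposite ways, with both 95% counting intervals away from 0, as in 5.92% of all genes tested. elovl1b had a log2 ratio of atrn-/- over wild type of 0.49 in males and -0.15 in females. acadl, the long-chain dehydrogenase, had 0.17 in males and -0.16 in females, where the interval ended at -0.00071. acadvl had 0.17 in males and -0.21 in females. pparda had the widest gap, -0.67 in males and 0.58 in females.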

How the results depend on the processing

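Without the filter on low counts, 294 genes were called in place of 42, with 2 lipid genes (elovl2 and fasn). DESeq2's Wald test called 93 genes, with 1 lipid gene (fasn), and the fit without sex 5. Of 54 genes followed, the 6 tested alternatives gave 321 values, none of which changed direction. With 1 library left out, 9 of the genes turned direction (acaa2, acacb, acadm, acadvl, acsl3a, elovl1b, hadhab, pparaa and pparda), and 18 others moved by over 1.5 times, among them aclya, elovl5, scd and lpl. The synthesis median lay between 0.40 and 0.43 over these fits. With each library left out in turn, which leaves no residual degree of freedom and no test, it lay between 0.20 and 0.60, that of activation between 0.089 and 0.26, that of oxidation between -0.039 and -0.018, that of glycerolipid genes between -0.12 and -0.019, and that of regulators, 0.010 with all libraries, between 0.18 and 0.19. The oxidation median was -0.015 with total counts, the glycerolipid median -0.14 at a mean of at least 50 counts, and the regulator median 0.069 without the filter. At a 2-fold threshold, 1 lipid gene was higher and 0 lower in male atrn-/-, and 0 either way in females. Without the filter, 2 were at least 1.5-fold lower in males, and 5 higher and 6 lower in females. A mean of at least 50 counts, or a prior count of 5, left 1 lower in females. The shares of all genes at these settings are not given here, so these counts are not set against a background. No pairing of replicates was possible because each sex and genotype had 1 library. Depth limits the low genes most: the log2 intervals of cpt1b and acsl3a span over 1 unit.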
